A study of Danio rerio with 14 samples.

Results

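The 5 genes linked to the yolk syncytial layer, other than the apolipoproteins, that were followed here in ethanol treated zebrafish embryos were serpina1l, slc27a2a, fbp1b, hnf4a and aqp3a. The members are the probe sets that the array annotation assigns to a single symbol among these 5 genes, which gave 6 probe sets (2 of them for hnf4a) of 10795 single-symbol probe sets for 8793 genes. The genes were chosen with their ethanol response in these same pools already known, so their ethanol values are given as a description, without a test. Serpina1l, slc27a2a and fbp1b had lower signals with ethanol, whereas hnf4a showed no common direction and aqp3a was higher in every pair.

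The yolk syncytial layer is a multinucleate layer of cytoplasm between the blastoderm and the yolk cell of the fish embryo. It takes part in epiboly, signals to the overlying endoderm and mesoderm, and breaks down yolk and exports lipid and protein to the embryo. Among the genes followed here, hnf4a encodes a nuclear receptor which in mammalian liver activates genes for lipoproteins and other secreted plasma proteins. Fbp1b encodes a fructose bisphosphatase, an enzyme of gluconeogenesis. Slc27a2a belongs to a family of fatty acid transport proteins that also activate long fatty acids to their CoA esters. Aqp3a is an aquaglyceroporin, a channel for water and glycerol, and serpina1l resembles the mammalian secreted protease inhibitor alpha-1-antitrypsin.

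The ethanol treated embryos were wild-type embryos of the TL strain kept in 100 mM (0.6%) ethanol from 2 hpf until they were collected at 8 hpf. The control embryos were TL embryos of the same age without ethanol. The paper reports slower epiboly in embryos given this ethanol treatment, so pools of the same age need not be of the same stage. The part of stage in the results was not tested. Each of 14 arrays measured RNA of a pool of about 20 whole embryos, 7 pools per treatment, and each ethanol pool had a control pool from the same embryo batch (batches 1 to 6 and 8), which gives 7 pairs. Values are signals, the background-corrected brightness of a probe set on a linear scale with every array scaled to a target of 1000. Signals of different probe sets cannot be set against each other, and in whole-embryo pools fewer cells of a type and less RNA per cell cannot be told apart.

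Probe sets entered the test if 3 or more of the 7 ethanol arrays, or of the 7 control arrays, had a signal of 200 or above. Log2 signals were fitted with limma with embryo batch as a block, and a difference counted as called where its p, adjusted by Benjamini and Hochberg's method, did not exceed 0.10. On this scale 2.00% of the 9240 probe sets tested were called lower with ethanol and 2.36% were called higher. Of the member probe sets, 5 of 6 were tested. Of these, 3 were called lower, none was called higher and 2 were not called, a count from which nothing is read because the genes were picked on this contrast. Because every array was scaled to the same target, likeness in overall brightness was set by the scaling. Median signals still ranged between 218 and 294 in ethanol pools and between 213 and 280 in control pools. In batch 1 the median was 218 in the ethanol pool against 266 in the control pool, and in batch 2 it was 294 against 242. The log2 ratio between the 3′ and 5′ control probe sets gives a rough guide to RNA integrity. That of GAPDH averaged 1.31 in ethanol pools and -0.515 in control pools and was higher with ethanol in 6 of 7 pairs. That of acta1 averaged 2.61 in ethanol pools and 1.04 in control pools and was higher in 5 of 7. Of the 28 signals behind each ratio, 16 for GAPDH and 22 for acta1 were below 200, so neither ratio settles RNA integrity. The part of RNA integrity in the results was not tested.

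The labelled layer could be checked only through its markers, since the pools held whole embryos. Of 11 markers of the yolk syncytial layer, 9 were on the array and 8 were tested, all but mxtx2, a homeobox regulator of the layer. Of the 8, apoa2, apobb.1 and tfa fell and none rose, 6 differences were below 0 with a median of -0.24, and 4 had an unadjusted p below 0.05, all of them lower with ethanol. Over all 6016 genes tested, 2.04% were called lower and 2.56% higher. The 3 called markers are counted again below among the HNF4A targets and the yolk genes. The summed signal of the 8 ranged between 141414 and 173331 in ethanol pools and between 143321 and 173478 in control pools, but it came largely from the bright genes apoeb and ctsla and cannot show a change in the dimmer markers. Of 14 tested markers of the enveloping layer, the outer epithelium of the blastoderm, 2 fell (anxa1a and anxa1b) and none rose, with a median difference of -0.02 and sums of 246363 to 312931 in ethanol pools and 259540 to 285368 in control pools. Calls were not confined to these layers. Markers of axial mesoderm had 2 of 6 tested called lower (shha and frzb), and those of ventrolateral mesoderm 1 of 10 (hand2). Among neural and ectoderm markers 2 of 14 were called higher, as was 1 of 4 germ cell markers, and none of 7 endoderm markers was called. An unadjusted limma p below 0.05 was likewise not particular to the yolk syncytial layer. It was found for 8 of 14 enveloping layer, 4 of 6 axial mesoderm and 3 of 7 endoderm markers. For ventrolateral mesoderm it was 2 of 10, for neural and ectoderm 4 of 14 and for germ cells 1 of 4. The part of any layer's abundance in the changes of single genes was not tested.

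Serpina1l, the serpin, had a signal between 277 and 6598 in ethanol pools with a median of 1962, and between 2081 and 9338 in control pools with a median of 3455. The ranges of the treatments overlapped, but within each of the 7 pairs the ethanol pool was the lower. Below the lowest control pool lay the ethanol pools of batches 3, 4, 5 and 8. The mean log2 difference was -1.15 (SE 0.24), a fold of 0.451. This SE and those below come from the limma fit and are moderated, so they draw on the variances of other probe sets. Without moderation the SE of serpina1l was 0.40. The pair of batch 4 stood apart at -3.47, with a signal of 277 in the ethanol pool against 3077 in the control pool, and the other 6 pairs lay between -1.16 and -0.50. Without batch 4 the mean difference was -0.76. In the RefSeq annotation of a later assembly the gene next to serpina1l is serpina1, which no probe set of 1 gene measures here, and whether its transcript adds to the serpina1l signal was not tested.

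Slc27a2a, the fatty acid transporter, ranged between 19.5 and 479 in ethanol pools with a median of 130, and between 242 and 518 in control pools with a median of 393. The ethanol pools of batches 3, 4, 5 and 6 lay below the lowest control pool. Only 3 of the 7 ethanol pools reached the signal of 200, whereas all 7 control pools did. The 3 ethanol pools were just enough for the signal minimum, which the control pools also met, so its passing is no evidence of a difference. The mean log2 difference was -1.48 (SE 0.42, or 0.60 without moderation). Single pairs spread between -4.26 in batch 4 and 0.12 in batch 2, the 1 pair of 7 in which ethanol was the higher. Adding 100 to every signal before the log brought the difference to -0.82, and leaving out batch 4 brought it to -1.02.

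Fbp1b, the gluconeogenic enzyme, was bright on every array, with signals of 12951 to 19502 in ethanol pools (median 14699) and 16512 to 21521 in control pools (median 18686). The shift was small and in 1 direction, as each ethanol pool lay below its own control pool. The mean log2 difference was -0.29 (SE 0.07), with pairs between -0.55 in batch 4 and -0.01 in batch 1. In batches 3, 4, 5 and 8 the ethanol pool lay below all 7 control pools.

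Hnf4a, the nuclear receptor, was measured by a bright and a dim probe set. The bright one gave 1148 to 3208 in ethanol pools (median 1555) and 1092 to 2996 in control pools (median 1829). These ranges overlapped almost completely. The mean log2 difference was -0.05 (SE 0.11), and ethanol was the higher in 3 pairs and the lower in 4, with a spread between -0.33 in batch 6 and 0.50 in batch 5. The dim probe set was not tested, as it reached 200 in 1 ethanol pool (209, batch 2) and 1 control pool (239, batch 4), and its lowest signals were 21.0 in ethanol pools and 4.28 in control pools.

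Aqp3a, the water and glycerol channel, gave 362 to 1191 in ethanol pools (median 588) and 284 to 1005 in control pools (median 498). The treatments overlapped, yet the ethanol pool was the higher in all 7 pairs. The mean log2 difference was 0.40 (SE 0.15), with pairs between 0.06 in batch 6 and 1.05 in batch 5, and it was not called. Across all probe sets tested, 3.15% were higher with ethanol in all 7 pairs and 2.97% were lower in all 7.

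**Figure D1:**
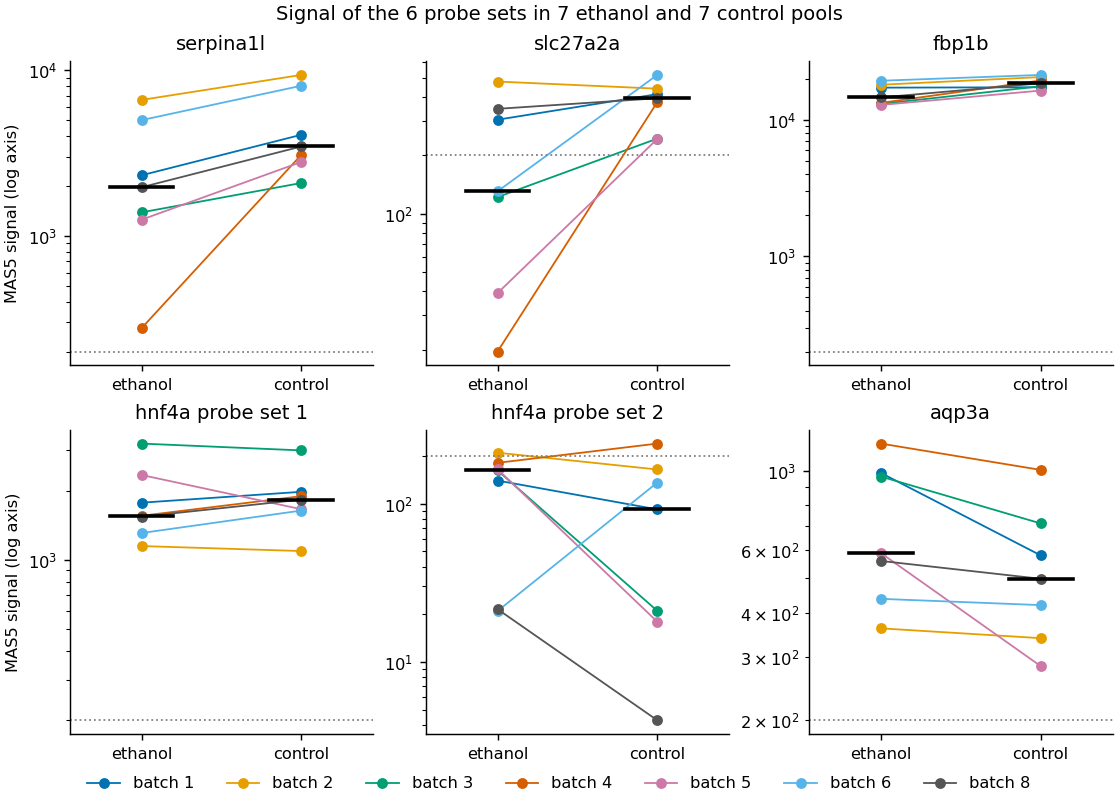
Signal (log axis) of the 6 probe sets in each pool, with ethanol pools left of control pools and a line joining the pools of a batch. In serpina1l and slc27a2a the ethanol pool of batch 4 is the lowest point, at 277 and 19.5, and fbp1b lies in a narrow band with each ethanol pool below its control pool. Black bars are medians and the dotted line marks a signal of 200.

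The 5 genes can also be set against each other within a pair. These orders are a description, as they come from the contrast on which the genes were picked. The log2 difference of serpina1l lay below those of hnf4a, aqp3a and fbp1b in all 7 pairs, and below that of slc27a2a in 3 of 7. Slc27a2a was less steady, with a difference below that of hnf4a in 5 of 7 pairs, of fbp1b in 5 of 7 and of aqp3a in 6 of 7. Aqp3a had a higher difference than hnf4a in all 7 pairs and a higher one than fbp1b in all 7, whereas hnf4a exceeded fbp1b in 5 of 7.

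**Figure D2:**
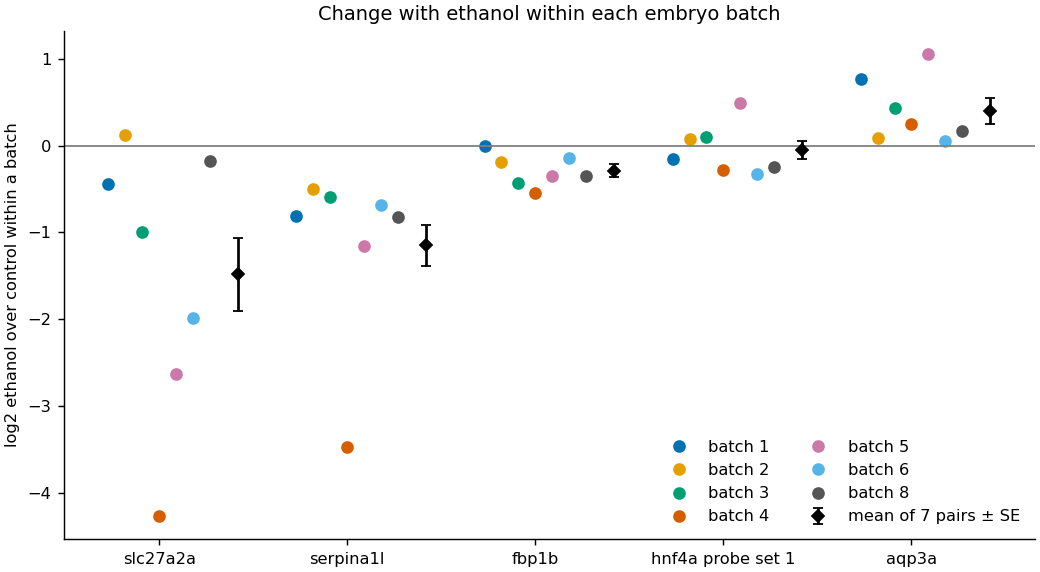
Log2 difference, ethanol minus control, of each tested member in each of the 7 pairs, with the mean and its moderated SE from the limma fit. Without moderation the SE was 0.40 for serpina1l, 0.60 for slc27a2a, 0.07 for fbp1b, 0.11 for hnf4a and 0.14 for aqp3a. Serpina1l and fbp1b lie below 0 in every pair, aqp3a above 0 in every pair and hnf4a on both sides, and batch 4 is lowest in serpina1l at -3.47 and in slc27a2a at -4.26.

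Differences between embryo batches were not used to choose the genes and were tested, although a single outlying ethanol pool moves the mean of its batch as well. A moderated F test over the 6 batch coefficients, adjusted over all probe sets, called 22.3% of the probe sets tested. Of the 5 tested members 4 passed. Serpina1l had the lowest adjusted p of them (0.000587), and its mean over both pools of a batch was 8.51-fold higher in the highest batch, batch 2, than in the lowest, batch 4. Batch 4 was lowest because of its ethanol pool. Without that batch the span was 4.63-fold, and among control pools alone it was 4.49-fold, with batch 2 highest and batch 3 lowest. Hnf4a (adjusted p = 0.00149) spanned 2.77-fold (2.74-fold in control pools) and aqp3a (adjusted p = 0.00182) spanned 3.12-fold (3.54-fold in control pools). For fbp1b the span was 1.40-fold (adjusted p = 0.0905), and the differences of slc27a2a did not pass (adjusted p = 0.130). Its span of 5.36-fold came mostly from the low ethanol pools of batches 4 and 5, as its control pools spanned 2.13-fold.

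The order of the batches differed between genes. Serpina1l was high in batches 2 and 6, whereas hnf4a was highest in batch 3 and lowest in batch 2, and aqp3a was highest in batch 4 and lowest in batch 2. The paralog hnf4b, a second nuclear receptor of this family, also differed between batches (adjusted p = 0.00353), with its highest mean of 1077 in batch 2 and its lowest of 343 in batch 3, the batches at the opposite ends for hnf4a (1120 and 3100). That contrast between the paralogs was noticed after the values were seen and has no test.

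**Figure D3:**
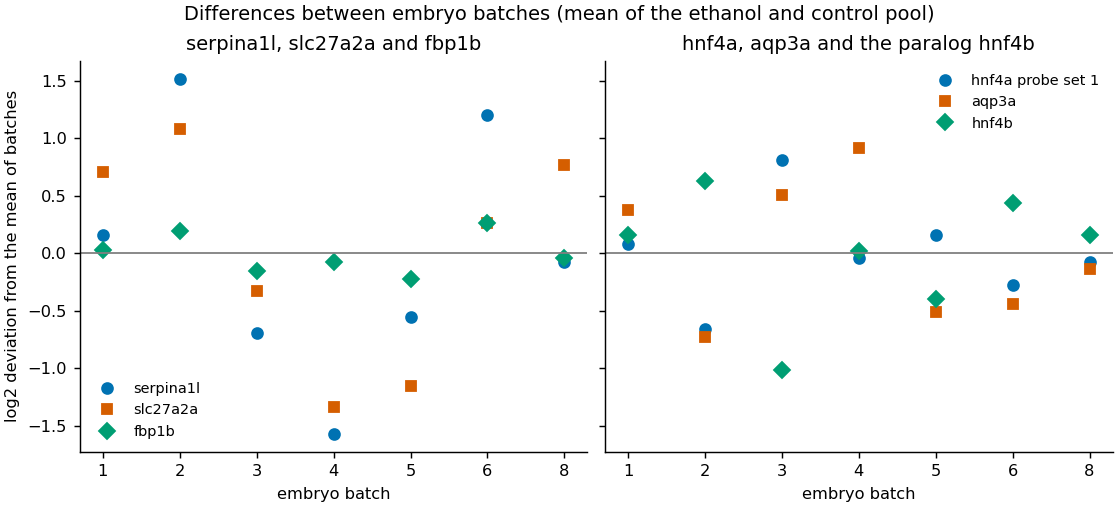
Log2 deviation of each embryo batch (mean of its ethanol and control pool) from the mean of the 7 batches, for the tested members and the paralog hnf4b. Serpina1l is highest in batch 2 and lowest in batch 4, where the ethanol pool was at 277, and in batch 3 hnf4a is at 0.81 while hnf4b is at -1.02.

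Control embryos alone show how the members vary together, and these pools were correlated over all 10 pairs of member genes by two-sided exact permutation tests (n = 7). By Pearson's r no pair passed after adjustment (4 of 10 had an unadjusted p below 0.05, and the lowest adjusted p was 0.102), and by Spearman's rho 1 pair passed. Serpina1l and slc27a2a, the genes with the most negative ethanol differences, gave r = 0.82 (exact p = 0.0353, adjusted p = 0.102) and rho = 0.93 (exact p = 0.00675, adjusted p = 0.0675). Without the 2 pools farthest from the median r was 0.86. This rho kept its call with an offset of 100 and without the control pool of batch 5, and lost it with quantile normalization (adjusted p = 0.160), with median centring (0.240) and without the control pool of any other batch (0.146 to 0.292). Serpina1l and hnf4a passed by neither measure (r = -0.81, exact p = 0.0169, adjusted p = 0.102, with rho = -0.68, exact p = 0.110, adjusted p = 0.274), and r was -0.66 without the 2 farthest pools. With any single control pool left out r stayed between -0.89 and -0.64, and it passed without that of batch 5 (permutation test adjusted p = 0.0694). When the pool of batch 2, 3 or 6 was left out first and then the 2 farthest of the rest, the same few pools remained each time. These were the control pools of batches 1, 4, 5 and 8, and their r was 0.83. The sign thus depended on the outer pools, and no direction is read from this pair. The relation of serpina1l and fbp1b (r = 0.78, exact p = 0.0409, adjusted p = 0.102, with rho = 0.64, exact p = 0.139, adjusted p = 0.278) rested on the 2 farthest pools, as r was 0.15 without them. Fbp1b and slc27a2a gave r = 0.80 (exact p = 0.0341, adjusted p = 0.102) and rho = 0.75 (exact p = 0.0663, adjusted p = 0.221), with r = 0.50 without the 2 farthest pools. The rho of fbp1b and slc27a2a passed with quantile normalization (rho = 0.96, permutation test adjusted p = 0.0278) and in no other setting. Hnf4a and aqp3a, neither of them called with ethanol, had r = 0.62 (exact p = 0.125, adjusted p = 0.249) and rho = 0.79 (exact p = 0.0480, adjusted p = 0.221).

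Paralogs gave a partial comparison, since 4 of the 9 listed were on the array and 2 were tested. Fbp1a, the second fructose bisphosphatase gene, averaged 191 ± 63.6 in ethanol pools and 345 ± 86.7 in control pools (SD, n = 7 each) and fell by 0.93 on the log2 scale (SE 0.25, limma adjusted p = 0.0582), with the ethanol pool lower in 7 of 7 pairs. Its call was close to the threshold, and the ethanol pool of batch 3 stood apart with a log2 signal of 5.85. It was lost without any single batch other than batch 1, with adjusted p between 0.102 and 0.144. Hnf4b averaged 646 ± 207 in ethanol pools and 850 ± 325 in control pools (SD, n = 7 each), a log2 difference of -0.35 (SE 0.14, limma adjusted p = 0.245), lower in 5 of 7 pairs. Serpina10a and hnf4g did not reach 200 on any array.

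The other regulators of the yolk syncytial layer were counted beside hnf4a. Of 40 listed genes, 26 were on the array and 15 were tested. Among these, gata5, sox32, sox17, foxa2, foxa3 and tbx16 were also counted above as markers of endoderm or mesoderm. Hhex and gata6 were also counted there as markers of the yolk syncytial layer. In whole-embryo pools the signal of such shared genes need not come from the layer. None was called in either direction in the limma fit, while 5 had an unadjusted p below 0.05, and the median log2 difference was 0.05 with 10 of 15 above 0. For comparison, 2.04% of the 6016 genes tested were called lower and 2.56% higher, with a median near 0 (0.0034). Gata5, a zinc finger factor of the endoderm and yolk syncytial layer, had a log2 difference of -0.26 (SE 0.10, adjusted p = 0.213), and foxa1, a forkhead factor, had -1.32 with a wide error (SE 0.75, adjusted p = 0.438). Sox32, an endodermal regulator that the layer also expresses, had 0.32 (SE 0.10, adjusted p = 0.119). It was called higher under some other settings, namely an added offset of 100, array weights, a signal minimum of 400, and without batch 1 or batch 6.

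Genes known as HNF4A targets in mammalian liver were mostly lower with ethanol. Of 50 listed genes, 32 were on the array and 12 were tested, of which 8 fell and none rose. All 12 log2 differences were below 0, with a median of -0.53. Apolipoprotein genes, which encode the protein part of lipoprotein particles, were prominent among those called. Apoba averaged 290 ± 241 in ethanol pools and 602 ± 341 in control pools, and apoa4b.1 averaged 267 ± 263 in ethanol pools and 533 ± 477 in control pools (SD, n = 7 each). Their log2 differences of -1.77 (SE 0.45, adjusted p = 0.0437) and -1.58 (SE 0.49, adjusted p = 0.0986) rest in part on signals of 4.82 and 6.35 in the ethanol pool of batch 4, and without that batch they were -1.10 (adjusted p = 0.0171) and -1.04 (adjusted p = 0.207). Apobb.1 differed by -1.23 (SE 0.20, adjusted p = 0.0025) and apoa2 by -1.07 (SE 0.13). Apoa1a, the plasma iron carrier gene tfa, the fatty acid binding gene fabp1b.1 and itih2, which encodes an inhibitor heavy chain, also fell. Serpinc1, the antithrombin gene, had a difference of -1.37 (SE 0.45, adjusted p = 0.130). Its signals were low, 26.1 to 229 in ethanol pools (median 98.1) and 146 to 328 in control pools (median 233). It could thus pass the signal minimum through its control pools alone. An offset of 100 brought its difference to -0.72 (adjusted p = 0.0845). Mttp, whose product loads lipid on to apolipoprotein B, had -0.30. The count was 5 without batch 4, 4 without batch 5 or batch 8, and 6 without batch 3 or batch 6. It was 4 with median centring, 2 with the block as a random effect, 1 without a variance trend, 0 without the block or without moderation, and 7 to 10 under the others.

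Most of these targets were also listed as yolk genes. Of the 12, 8 also stood among the 34 tested genes listed as other yolk syncytial layer and yolk genes (66.7% of the first list and 23.5% of the second), and 6 of these 8 were among the falls. In that second list 14 genes fell and 1 rose, with a median of -0.31. Dab2, an endocytic adaptor, was the gene that rose (0.72, SE 0.18). Beside apolipoproteins, the falls included selenop, a selenium carrier (-1.20), gamt of creatine synthesis (-1.04), rbp4l, a retinol binding protein (-0.98), and bhmt of methionine synthesis (-0.89). The number of falls was between 9 and 14 when single batches were left out, 9 without batch 5. It was 5 with the block as a random effect, 1 without a variance trend, and 0 without the block or without moderation, and the rise of dab2 was lost under all of these, with median centring and without batch 2 or batch 6. Both this list and that of HNF4A targets were written with earlier results on these pools known, so their direction is not independent evidence.

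Genes that share a pathway with slc27a2a, fbp1b, aqp3a or serpina1l mostly were not called. Of 26 tested genes of fatty acid uptake, activation and oxidation, 2 fell, the fatty acid binding genes fabp2 (-0.86, SE 0.21, adjusted p = 0.0352) and fabp1b.1 (-0.31), and 1 rose, got2b (0.48, SE 0.11, adjusted p = 0.0256). The median was -0.11. Among 21 tested genes of gluconeogenesis and shared glycolytic steps fbp1a fell and gapdhs, a glyceraldehyde phosphate dehydrogenase gene, rose (0.94, SE 0.24, adjusted p = 0.0422). The median was 0.13, with 14 of 21 above 0. As the list holds many glycolytic genes, this median does not speak for gluconeogenesis alone. Pck2 (-0.27, SE 0.09) and slc37a4a (-0.74, SE 0.54) were below 0 and mdh1aa (0.33, SE 0.11) above it, none of them called. None of 6 tested genes of aquaporins and glycerol metabolism was called, 1 had an unadjusted p below 0.05, and the median was -0.09. Of the list of serpins and alpha-2-macroglobulins 7 genes were tested, namely serpinc1, serpine2, serpinh1b, itih2, spint1a, spint1b and spint2. No alpha-2-macroglobulin was among them. Serpine2, a protease inhibitor gene, rose (0.41, SE 0.09, adjusted p = 0.0215) and itih2 fell (-0.52, SE 0.12, adjusted p = 0.0284). The median of 0.11 was the value of spint2 and does not describe the serpins, as serpinc1 and serpinh1b were below 0. Serpinh1b, a collagen chaperone, had -0.40 (adjusted p = 0.143). Fabp2, fabp1b.1, serpine2 and itih2 were not called with median centring, with a random block, without a variance trend, without moderation or without the block, and got2b was lost under all of these but the random block. Fbp1a and gapdhs were not called with median centring, without moderation or without the block, nor was fbp1a with no signal minimum. Without single batches, fabp1b.1 lost its call without batch 2, 4, 5 or 8, itih2 without batch 8 and gapdhs without batch 2.

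**Figure D4:**
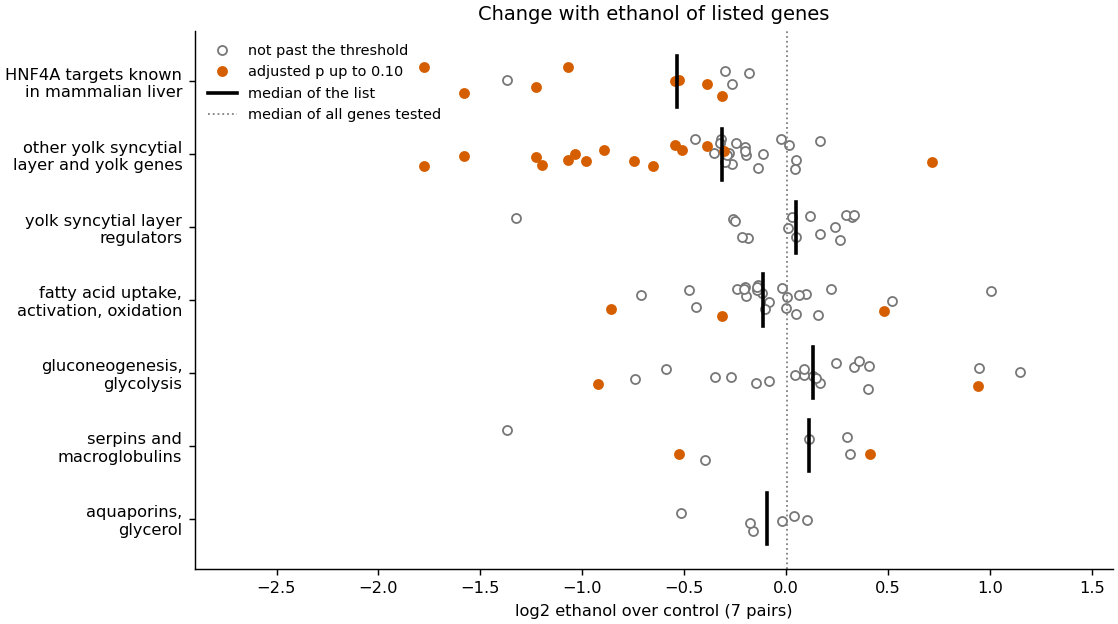
Log2 difference, ethanol minus control, of the tested listed genes by list, with called genes marked. The regulators scatter about 0 with none called, and all 12 tested HNF4A target genes lie below 0 with 8 of them called. The lists were written with earlier results on these pools known.

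Batch 4, in which serpina1l and slc27a2a had their lowest ethanol pools, also stood out in the listed genes, as was seen after the values were known. Beside the low apoba and apoa4b.1 signals given above, apobb.1 was at 412 in the ethanol pool against 3426 in the control pool. Several regulators were high in the same pool. Sox32 was at 22518 in the ethanol pool against 12377 in the control pool, klf17 at 6493 against 4250, cebpb at 6393 against 3551 and nanog at 2882 against 1307. The ethanol pool of batch 4 was the highest of all 14 pools for these 4 genes and for hhex, tbx16, foxa3 and the dim eomesa. Other regulators had their lowest signal of the 14 pools there. Gata5 was at 2379 in the ethanol pool against 4303 in the control pool, foxa2 at 1732 against 2603 and foxa1 at 13.3 against 186. The regulators therefore did not move in 1 direction in this pool. Extreme signals there were not particular to the yolk syncytial layer. Some markers of other layers were at their highest of the 14 pools (sox19a at 23623 and six3a at 813) and others at their lowest (otx2b at 1994 and hand2 at 23.3). Hnf4a in this batch was at 1555 in the ethanol pool against 1893 in the control pool, a log2 difference of -0.28.

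Pools of the same embryo batch, or of the same treatment, are not independent of each other, so the ranking below is a description. Genes with the most similar pattern to each member over all 14 pools were ranked by Pearson's r of the log2 signal. For serpina1l they were txnb (r = 0.966), a thioredoxin gene, fabp2 (0.964) and gpx4a (0.952), a glutathione peroxidase gene. For slc27a2a they were bhmt (0.937), atp6v1h (0.911), a subunit of the vacuolar proton pump, and rsph1 (0.894). For fbp1b they were a2m2h (0.945), mvp (0.921), which encodes the major vault protein, and mpp1 (0.909). None of these genes was shared with the closest genes of hnf4a or aqp3a, but no grouping of the members is read from that. For hnf4a they were supt6h (0.911), a factor of transcript elongation, lrrc8aa (0.866), a subunit of volume-regulated anion channels, and pgd (0.850), an enzyme of the pentose phosphate pathway. For aqp3a they were pkp3a (0.922), a desmosomal plakophilin gene, fbxo44.9 (0.920) and ccnd1 (0.910), the cyclin D1 gene. Only the few closest genes of each member were compared, so a lack of shared genes cannot separate the members into groups. The r over all 14 pools also includes the ethanol difference, on which the members were picked.

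The values of the members were also computed under 11 other settings and with each batch left out. Serpina1l stayed between -1.26 and -0.76 in log2 over all of these, and hnf4a between -0.14 and -0.0037. Aqp3a stayed between 0.29 and 0.46 and was not called in any. Fbp1b stayed between -0.33 and -0.24, and slc27a2a had the widest range, between -1.75 and -0.82. The calls of these genes are no test of them, as the genes were chosen on this contrast, and they were not steady. That of fbp1b was lost without batch 3, 4, 5 or 8 and that of slc27a2a without batch 3, 4, 5 or 6. Both were lost with median centring, and with no trend, without moderation, with no block and with a random block these 2 and that of serpina1l were lost.

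**Figure D5:**
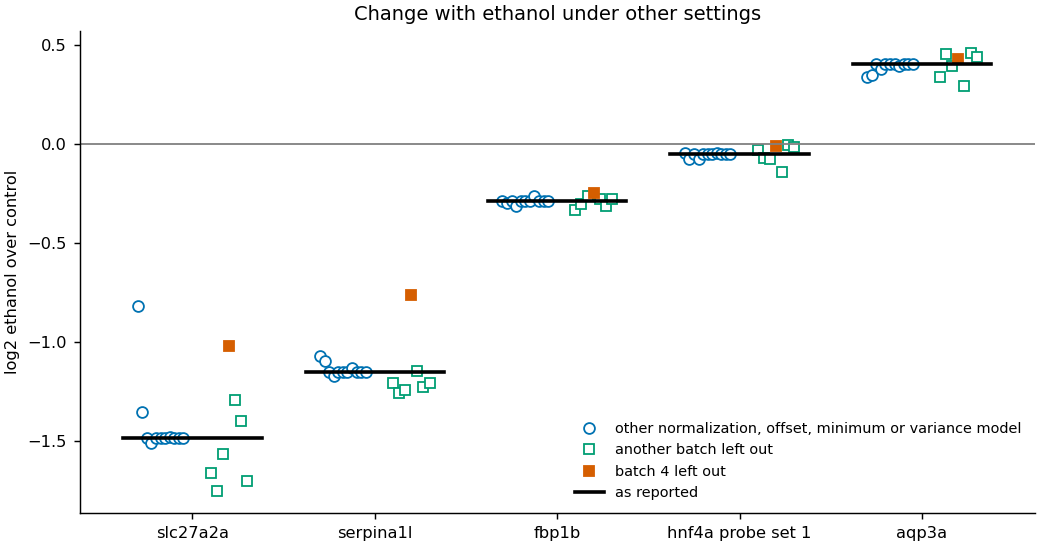
Log2 difference, ethanol minus control, of each tested member under the 11 other settings and with each of the 7 batches left out, beside the value reported. The points of slc27a2a spread between -1.75 and -0.82, whereas those of fbp1b, hnf4a and aqp3a lie close together.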

How the data were processed

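The RNA was amplified and labelled with a 3′ IVT Express kit and hybridised to Affymetrix Zebrafish Genome Arrays, 1 pool per array, and all 14 arrays were labelled, hybridised and scanned together. The deposited values are intensity values on a linear scale, which the authors obtained with MAS5 after scaling each array to 1000. Per the methods, every sample had an RNA integrity number of 9.0 or above. Detection calls and probe sequences were not used here, and no genome was used, so no sequence or position is given.

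Of 15617 probe sets, 115 controls were left out. A single symbol was held by 10802, several by 135 and none by 4680, and 10718 probe sets matched a RefSeq gene. The signal minimum left out 6262 probe sets and kept 9240. The fit of the log2 signals used limma 3.58.1 (R 4.3.3), with fixed terms for treatment and for batch, and variances moderated by eBayes along a trend with the mean signal, which left 6 residual degrees of freedom and added 12.7 prior ones. The number of arrays limits the precision. Where several tested probe sets measured a listed gene, the brightest on average stood for it, and no list was tested as a set. Correlations used exact permutation tests (scipy 1.17.1). The fit was tested on simulated data.

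Replicate numbers pair the pools, as the methods describe 7 independent experiments. The deviations of same-numbered pools from their treatment means correlated at 0.112 to 0.378 in the 7 pairs. In 6 of 7 the correlation was highest with the own number, and batch 1 correlated better with another number (0.165 against 0.112). The methods treat the batches as separate experiments. With batch as a block, the limma p-values of the ethanol contrast measure the spread of the differences within pairs, moderated by the variances of other probe sets. They do not measure the spread between batches.

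The members and lists were chosen with earlier results of these data known. The rule for named genes covers all member probe sets, the measured paralogs, up to 4 called genes of each list with the largest differences and the 3 genes most similar to each member. Other genes were named after their values were seen. Alternatives were signal minimums of 100, 400 and none, quantile normalization, median centring, an offset of 100, array weights, unmoderated variances, eBayes without a trend, leaving the block out or making it random (statmod 1.5.0), and leaving out each pair.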

Additional observations from a re-analysis of the deposited data

Results flagged for a closer look

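The values of the members and measured paralogs were searched for pools far from the others of their group, 24 groups of 7 values in all, with Dixon's criterion at a critical value of 0.568. Chance alone marks about 1 in 20 such groups. The log2 difference of serpina1l in batch 4, -3.47, was separated from the next pair by 0.779 of the whole range of the 7 pairs. The log2 signal of fbp1a in the ethanol pool of batch 3, 5.85, was separated from the next ethanol pool by 0.767 of the range. The cause of either value was not tested.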

How the results depend on the processing

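Of the values of members, lists and named genes recomputed under other settings, 294 kept their side of the threshold or stayed within the spread, 85 counts or values moved, and none changed direction. Of the batch tests and fbp1a, 23 lost their call and 2 gained one. The ethanol calls of the members, which are descriptions here, were lost in 4 of 18 settings for serpina1l, 9 of 18 for fbp1b and 9 of 18 for slc27a2a. The number of probe sets changed by ethanol, 403 (218 higher and 185 lower), was 43 without a variance trend, 103 with median centring (47 higher and 56 lower), 45 without moderation, 28 with no replicate block (25 higher and 3 lower), 177 with the block as a random effect (104 higher and 73 lower), and 209 to 483 without single batches, with 241 without batch 4, 239 without batch 5, 246 without batch 6 and 209 without batch 8. The listed genes changed, 22 of 110, numbered 3 without a trend, 10 with median centring, 8 with the random block, and 0 without moderation and with no replicate block, where 32 and 21 had an unadjusted limma p below 0.05, and 16 to 25 without single batches. The 2058 probe sets that differed between batches numbered 752 without a trend, 1093 with median centring and 573 without moderation. The correlations past the threshold in control pools, 0 by Pearson's r, numbered 0 to 2 without single pools, with 2 without batch 5, and 1 by Spearman's rho, which was lost in most settings. Other pairs passed by rho in some settings, namely fbp1b and slc27a2a with quantile normalization and several pairs without the control pool of batch 5. The batch test of serpina1l was past the threshold in 14 of 16 settings, of aqp3a in 16, of hnf4a in 15 and of fbp1b in 6. Fbp1a was not past it without the pairing (adjusted p = 0.427) or with median centring (0.113). The cause of these differences was not tested. Low signals limit slc27a2a, serpinc1 and the dim hnf4a probe set, which lay below 200 in several pools.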
